A study of Arabidopsis thaliana with 6 samples.

Results

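Senescence-associated genes (SAG) and senescence-related genes (SRG) are transcripts that accumulate while a leaf yellows and exports its nutrients, and they serve as markers of that state in Arabidopsis. They are a mixed group in function, with oxidoreductases, a copper protein, membrane proteins and a lipase-like protein among them, and many also respond to wounding, pathogens, oxidative stress or abscisic acid. A rise of 1 such marker is therefore no measure of leaf age by itself. The genes described here are 7 loci named SRG1 (AT1G17020), SAG13 (AT2G29350), NHL10 (AT2G35980), SAG14 (AT5G20230), SAG101 (AT5G14930), SAG20 (AT3G10985) and SAG21 (AT4G02380), chosen by name. A probe set naming that one gene was found for 5 of the 7, out of 14276 genes that were tested in all. SAG101 was named by the platform annotation, and SRG1, SAG13, NHL10 and SAG14 got their names from a supplementary list of the study that pairs probe sets with H2O2-responsive transcripts (here the H2O2 list). No probe set was named for SAG20, a wound-induced protein gene, or SAG21, a gene of the late embryogenesis abundant (LEA) family, so they were not analysed here. All of these loci but SAG101 are on the study's own list of salt-responsive transcripts from the same arrays, SAG20 and SAG21 included, so that a response of the listed loci is no independent evidence. SAG12, the cysteine protease gene that the study measured by qRT-PCR as a senescence marker, had no named probe set either.

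The plants were wild-type Arabidopsis thaliana of the Col-0 ecotype, grown in hydroponic culture under short days, and every group had this 1 genotype. Control plants stayed in medium without NaCl, whereas salt plants had 150 mM NaCl in the medium for 4 d. Rosettes of both groups were profiled on Affymetrix ATH1 arrays, 3 control and 3 salt arrays with 1 sample each. In the paper's description these replications were biological and independent of each other. The labels give an age of 28 d for both groups, and in the paper this is the age at which treatment began. How many plants went into 1 sample is not given in the sources used here.

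Values are log2 expression after robust multiarray averaging (RMA), so that 1 unit is a 2-fold difference. Levels of different genes cannot be compared on this scale, because each gene has its own probes. Salt and control were compared with limma over all genes tested, with Benjamini-Hochberg adjustment, and the words rose and fell are kept for an adjusted p under 0.05. Array medians lay between 6.86 and 6.92. Control arrays correlated with each other at 0.993 to 0.997 across probe sets, and salt arrays at 0.980 to 0.988, the lower values being those of salt replicate 1. The 25S ribosomal RNA probe set lay at 7.16 to 7.84 in control and 9.05 to 10.24 in salt samples, highest in salt replicate 1. For actin, the 3′ minus 5′ difference was 3.11 to 3.23 in control and 3.36 to 3.66 in salt samples on one pair of probe sets, and overlapped on another (1.38 to 1.41 and 1.29 to 1.59). The part of these RNA signals in the results below was not tested. RCA, the gene of Rubisco activase and the only one of 10 listed leaf markers with a named probe set, lay at 13.54 to 13.62 in control and 13.20 to 13.40 in salt samples, without overlap (difference -0.26, SE 0.087, adjusted p = 0.072 from limma). Of 7 listed root markers 5 were measured, and none passed the test. The sum of their log2 values was 29.59 to 30.26 in control and 28.45 to 29.23 in salt samples, with LRX1 and IRT1 between 4.10 and 4.34 on every array. The largest differences among the 5 were -0.80 for PYK10 (SE 0.25, adjusted p = 0.057 from limma), -0.16 for EXPA7 and -0.09 for CASP1. PYK10 thus made up most of the difference in the sum.

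Of the 5 measured markers, SRG1, SAG13, NHL10 and SAG14 rose after 4 d of salt, and SAG101 did not pass the test. The rises ran from 3.17-fold for SAG14 to 17.4-fold for SRG1, and for each of these 4 genes the lowest salt array lay above the highest control array. SAG14 stood above 96.9% to 98.4% of probe sets on control arrays and 99.7% to 99.9% on salt arrays. For SRG1 these shares were 31.3% to 33.5% and 88.3% to 91.9%. The part of the place on the array scale in the size of a rise was not tested. Of all genes tested, 11.4% rose and 12.3% fell, and in 18.9% the salt arrays all lay above the control arrays. At an unadjusted p under 0.05 from limma, 16.8% were higher and 20.0% lower. The 4 markers belong to 921 genes that owe their name to the H2O2 list alone, and among those 36.9% rose, 11.6% fell and 44.1% had every salt array above every control array. Among genes named by the platform annotation, as SAG101 was, 9.65% rose. The median difference was 2.03 on the log2 scale over the 5 markers, -0.03 over all genes tested and 0.29 over the 921 genes named by the H2O2 list alone. In whole rosettes, more RNA per cell and a larger share of cells expressing a gene cannot be told apart.

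**Figure D1:**
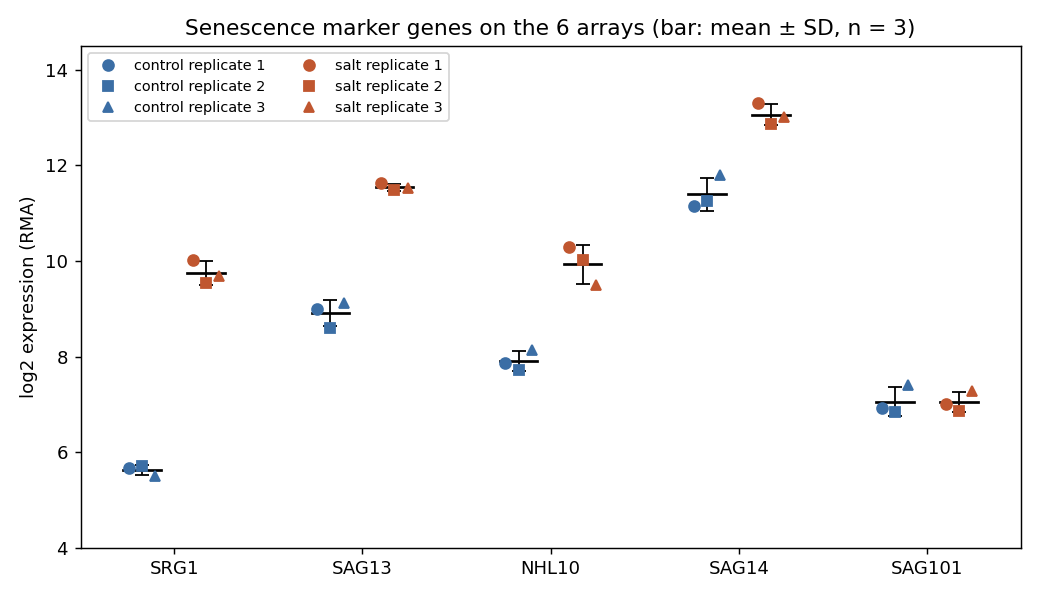
Log2 expression (RMA) of the 5 measured senescence markers on each array, with blue symbols for control and orange for salt samples, symbol shape for the replicate number, and bars for the mean ± SD (n = 3). Salt arrays lie above all control arrays for SRG1, SAG13, NHL10 and SAG14, whereas those of SAG101 lie between 6.87 and 7.27 inside the control range of 6.84 to 7.41.

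SRG1, which encodes a member of the 2-oxoglutarate and iron-dependent dioxygenase family, showed the largest change. Its log2 values were 5.66, 5.70 and 5.51 in control replicates 1 to 3, and 10.02, 9.53 and 9.69 in salt replicates 1 to 3. The groups lay far apart, with 3.83 log2 units between the highest control and the lowest salt array. The control mean of 5.62 ± 0.10 (SD, n = 3) stood against a salt mean of 9.75 ± 0.25 (SD, n = 3), a difference of 4.12 (SE 0.14, 95% interval 3.80 to 4.45, adjusted p = 4.0e-05 from limma). In order of rise it was number 15 of the 14276 genes.

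SAG13 encodes a short-chain dehydrogenase/reductase and is used as a marker of early senescence and of cell death. It stood at 8.99, 8.60 and 9.12 in control replicates 1 to 3 and at 11.63, 11.49 and 11.52 in salt replicates 1 to 3. The salt arrays were nearly equal, spanning 0.14 log2 units against 0.52 among control arrays. The difference was 2.64 (SE 0.14, 95% interval 2.31 to 2.98, adjusted p = 2.0e-04 from limma), or 6.25-fold, from 8.90 ± 0.27 (SD, n = 3) to 11.55 ± 0.074 (SD, n = 3).

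NHL10, also named YLS9 (YELLOW-LEAF-SPECIFIC GENE 9), belongs to the NDR1/HIN1-like family, whose founders were found through their part in defence or the hypersensitive response. Control values were 7.86, 7.72 and 8.13, and salt values 10.30, 10.01 and 9.49 for replicates 1 to 3. Salt replicate 3 was the lowest of the salt arrays and still lay 1.36 above the highest control array. The mean was 7.90 ± 0.21 (SD, n = 3) without and 9.93 ± 0.41 (SD, n = 3) with salt, and the difference was 2.03 (SE 0.21, 95% interval 1.53 to 2.53, adjusted p = 0.0015 from limma). Of the 4 markers that rose, NHL10 had the widest spread among salt arrays, 0.81 log2 units.

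SAG14, the blue copper-binding protein gene BCB, encodes a phytocyanin, a small copper protein held at the cell surface. It stood at 11.14, 11.26 and 11.79 in control replicates 1 to 3, and reached 13.30, 12.87 and 13.01 in salt replicates 1 to 3. Control replicate 3 was high for the control group, and 1.08 log2 units separated it from the lowest salt array. The difference was 1.66 (SE 0.19, 95% interval 1.21 to 2.12, adjusted p = 0.0021 from limma), or 3.17-fold, from 11.40 ± 0.35 (SD, n = 3) to 13.06 ± 0.22 (SD, n = 3).

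SAG101 encodes a lipase-like protein that was first described in leaf senescence and that pairs with EDS1 in immunity set off by intracellular receptors. Its values were 6.92, 6.84 and 7.41 in control replicates 1 to 3 and 7.0, 6.87 and 7.27 in salt replicates 1 to 3, so that the groups overlapped fully. In both groups replicate 2 was the lowest array and replicate 3 the highest. The means were 7.06 ± 0.31 (SD, n = 3) and 7.05 ± 0.20 (SD, n = 3), a difference of -0.01 (SE 0.18, adjusted p = 0.975 from limma). The 95% interval of -0.43 to 0.41 corresponds to 0.744- to 1.33-fold, and a change within it is not excluded with 3 arrays per group. It is no detection limit, since a call at the adjusted p needs a larger difference.

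The changes of the other markers were set against that of SAG101 within each array, as the difference between the log2 values of a marker and of SAG101. This difference changed by 4.13 for SRG1, 2.65 for SAG13, 2.04 for NHL10 and 1.67 for SAG14 between control and salt samples. All 3 salt arrays lay on the same side of all 3 control arrays in each of these 4 comparisons. SAG101 itself differed by -0.01, so these values nearly repeat the markers' own differences. The separation adds nothing to that already given for each marker. The exact permutation test (two-sided) gave p = 0.1 for each and p = 0.1 after adjustment over the 4, the smallest value that 3 arrays against 3 allow, so none could pass the threshold.

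**Figure D2:**
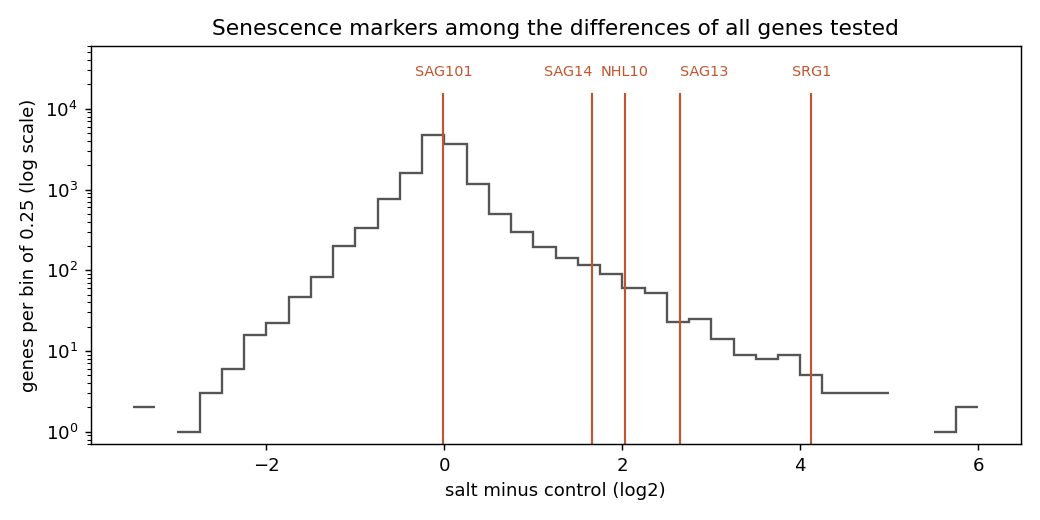
Number of genes per bin of the difference between salt and control means (x axis, log2 in bins of 0.25; y axis, genes on a log scale) over the 14276 genes tested, with vertical lines at the 5 measured markers. SAG101 stands at the centre of the distribution (-0.01), SAG14 (1.66), NHL10 (2.03) and SAG13 (2.64) in its right flank and SRG1 (4.12) near the right end.

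The replicates of a group were not equally high in these genes. Control replicate 3 was the highest control array for 4 of the 5 markers (all but SRG1) and for 33.0% of all genes tested. Salt replicate 1 was the highest salt array for 4 of the 5 (all but SAG101) and for 36.4% of all genes tested. Salt replicate 1 also had the highest 25S ribosomal RNA value, and control replicate 3 the highest of the control arrays. Without salt replicate 1 the differences were 3.99 for SRG1, 2.60 for SAG13, 1.85 for NHL10 and 1.54 for SAG14, and without control replicate 3 they were 4.07, 2.75, 2.14 and 1.86 in the same order. All 4 passed limma's test with any 1 array left out (highest adjusted p = 0.015).

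Each marker was then compared with its relatives, since a rise shared by a family differs from the rise of 1 of its genes. SAG13 lies in a tandem group of short-chain dehydrogenase genes. In the reference annotation, AT2G29290 to AT2G29370 are 9 consecutive genes of this kind, SAG13 among them, and all 9 were measured. Of 11 listed relatives of SAG13, all measured and all named by the platform annotation, none rose and 2 fell by limma, with 1 higher and 3 lower at an unadjusted p under 0.05. Among all genes tested 11.4% rose and 12.3% fell, with 16.8% higher and 20.0% lower at the unadjusted p. For 11 genes these counts lie near the shares of all genes, so they show no trait of the family. AT2G29150 and AT2G29330, at 4.18 to 5.18, had a mean signal below the 30th percentile of all genes tested (5.23). The median difference of the 11 was -0.14, in a range from -1.55 to 0.48. The neighbour on one side, AT2G29340, had values of 9.51, 9.41 and 9.45 in control and 10.31, 10.03 and 9.46 in salt replicates 1 to 3, a difference of 0.48 (SE 0.20, adjusted p = 0.14 from limma). It passed only when salt replicate 3 was left out, with a difference of 0.71 (adjusted p = 0.010 from limma).

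On the other side of SAG13, AT2G29360 went from 9.23, 8.96 and 9.04 to 8.03, 8.56 and 8.59, a fall of -0.68 (SE 0.17, adjusted p = 0.026 from limma). AT2G29310 fell as well, with a difference of -0.86 (SE 0.20, adjusted p = 0.023 from limma). Both calls were lost without control replicate 1 or 2 (adjusted p of 0.071 to 0.10 from limma), and that of AT2G29360 also without control replicate 3 (0.070) and with the replicate number as a block (0.063). AT2G29290 had the largest difference of the group, -1.55 (SE 0.46, adjusted p = 0.052 from limma), with salt replicate 1 at 7.03 against 8.92 and 8.60 in salt replicates 2 and 3. It passed under 9 of 18 alternatives, among them without salt replicate 1, with -0.97 (adjusted p = 0.014 from limma), and without salt replicate 2, with -1.92 (0.031).

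SRG1 also differed from the genes listed with it. AT1G17010, the gene numbered just before SRG1, lay at 3.99 to 4.12 in control and 3.87 to 4.03 in salt samples. Its difference was -0.06 (SE 0.088, adjusted p = 0.67 from limma). The lowest values on the arrays were 3.15 to 3.29, and the 30th percentile of mean signal was 5.23. AT1G17010 thus lay near the floor, and its difference does not show unchanged expression. AT1G78550 had a difference of -0.27 (SE 0.14, adjusted p = 0.21 from limma). The remaining 2 of 4 listed dioxygenases had no named probe set. Of 12 listed phytocyanins, the copper protein family of SAG14, 9 were measured. Among them none rose (none at an unadjusted p under 0.05 either) and 3 fell by limma, and their median difference was -0.08. Over all genes tested 11.4% rose and 12.3% fell, with 16.8% higher and 20.0% lower at the unadjusted p. With 9 genes, the lack of a rise lies near the share of all genes and shows no trait of the family. UCC1, AT2G26720 and AT2G31050, at 3.96 to 4.84, also had a mean signal below the 30th percentile. Their differences near 0 therefore do not show unchanged expression. ENODL19 had a difference of -1.60 (SE 0.29, adjusted p = 0.010 from limma), AT1G72230 -1.41 (SE 0.21, adjusted p = 0.0056 from limma) and AT5G26330 -0.87 (SE 0.10, adjusted p = 0.0023 from limma). The call of ENODL19 was lost when control replicate 2 was left out (adjusted p = 0.051).

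NHL10 was accompanied by its relatives. Both measured members of the NDR1/HIN1-like family besides NHL10, out of 9 listed, rose. NHL6 went from 8.22, 7.65 and 8.19 in control to 10.45, 10.16 and 10.13 in salt samples, a difference of 2.23 (SE 0.17, adjusted p = 5.9e-04 from limma). NHL13 went from 7.48, 7.55 and 7.32 to 9.18, 8.64 and 9.35, a difference of 1.61 (SE 0.18, adjusted p = 0.0020 from limma). Both were named by the platform annotation, unlike NHL10, and 9.65% of all genes so named rose.

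Of 7 immunity genes listed beside SAG101, EDS1B alone was measured. It stood at 4.94, 4.55 and 5.73 in control and 5.44, 5.23 and 5.60 in salt replicates 1 to 3, with overlapping groups. The difference was 0.35 (SE 0.28, adjusted p = 0.43 from limma), and without control replicate 3 it was 0.68 (adjusted p = 0.049 from limma). Relatives of the 2 markers without a named probe set were measured in part. DI21, a drought-induced gene of the same LEA group as SAG21, rose by 1.36 (SE 0.26, adjusted p = 0.013 from limma; 0.056 without control replicate 1), and AT3G53770 of that group had 0.14 (SE 0.093, adjusted p = 0.33 from limma). AT5G01740, listed with SAG20, had -0.13 (SE 0.12, adjusted p = 0.52 from limma).

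**Figure D3:**
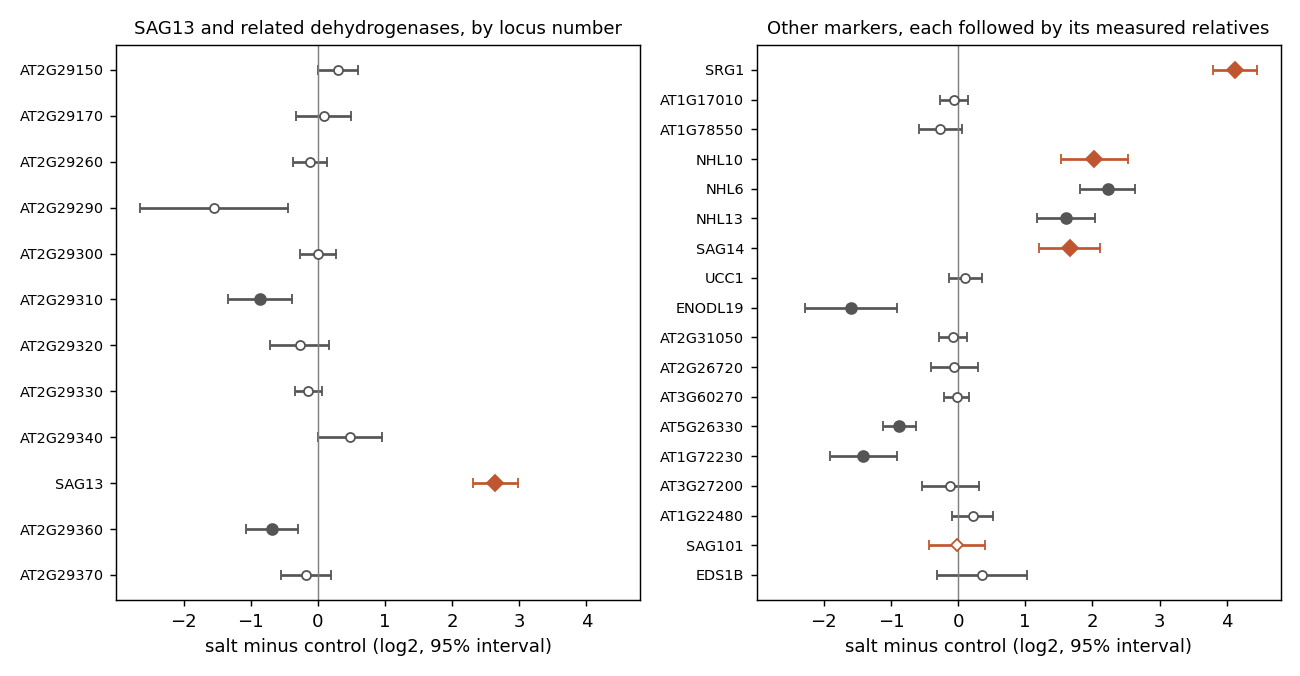
Difference between salt and control means (x axis, log2) with its 95% interval from limma, for SAG13 among 11 related dehydrogenases in order of locus number (left) and for the other measured markers followed by their relatives (right). Orange diamonds are the markers, grey circles the relatives, and filled symbols passed the test: SAG13, SRG1 and SAG14 lie right of all relatives listed with them, NHL10 lies between NHL6 and NHL13, and SAG101 lies at -0.01 beside EDS1B at 0.35.

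Within each array, the log2 value of a marker minus the mean of its measured relatives changed by 4.29 for SRG1 (2 relatives), 2.91 for SAG13 (11 relatives) and 2.09 for SAG14 (9 relatives). For NHL10 it changed by 0.11 (2 relatives) and for SAG101 by -0.36 (1 relative). The means of the relatives of SRG1, SAG13 and SAG14 include the genes of low signal named above. Over these 5 comparisons, chosen after the values were seen, the exact permutation test (two-sided) gave p = 0.8 for NHL10 and p = 0.1 for the others, the smallest value possible here (adjusted p = 0.125). The change of NHL10 against its relatives was smaller than the spread between salt arrays (SD 0.46, n = 3).

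Other senescence markers moved in the same direction as SRG1, SAG13, NHL10 and SAG14. Of 16 listed genes with SAG, SRG, SEN or YLS names, 6 were measured, 5 rose and none fell by limma, and the median difference was 1.41. DIN2, the beta-glucosidase gene also called SRG2, rose by 5.90 (SE 0.36), SAG29, which encodes the sugar transporter SWEET15, by 2.03 (SE 0.23), and YLS4, an aspartate aminotransferase gene, by 1.91 (SE 0.11). SRG3 rose by 0.90 (SE 0.15) and YLS5 by 0.63 (SE 0.15). The call of YLS5 was lost when control replicate 1 or 2 or salt replicate 1 or 3 was left out (highest adjusted p = 0.11). For SEN1 the difference was 0.87 (SE 0.56) and missed the threshold (adjusted p = 0.31 from limma). Its control values were 8.22, 10.19 and 10.44 against 10.36, 10.20 and 10.91 in salt samples, so that control replicate 1 stood apart and the other control arrays overlapped the salt arrays. Without control replicate 1 the difference of SEN1 was 0.18 (adjusted p = 0.69 from limma). The H2O2 list gave the names of 4 of the 6, and 36.9% of all genes named by that list alone rose (11.4% of all genes tested).

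Of 23 listed regulators of leaf senescence 15 were measured, 11 of them named by the H2O2 list alone. By limma 13 rose while none fell (none at an unadjusted p under 0.05), with a median difference of 1.77. The list does not separate regulators that promote senescence from those that delay it, so the count gives no direction of the programme. Of all genes tested 11.4% rose, and 36.9% of those named by the H2O2 list alone. The largest rises were those of the NAC transcription factor genes ANAC055 with 3.78 (SE 0.36), ANAC092 with 2.73 (SE 0.24) and ANAC032 with 2.65 (SE 0.21). The other two were WRKY54 at -0.28 (SE 0.22, adjusted p = 0.42 from limma) and EIN3 at 0.19 (SE 0.13, adjusted p = 0.34 from limma). These lists were drawn up with earlier results of the same arrays known, so their counts describe the genes and do not serve as independent evidence of a direction.

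**Figure D4:**
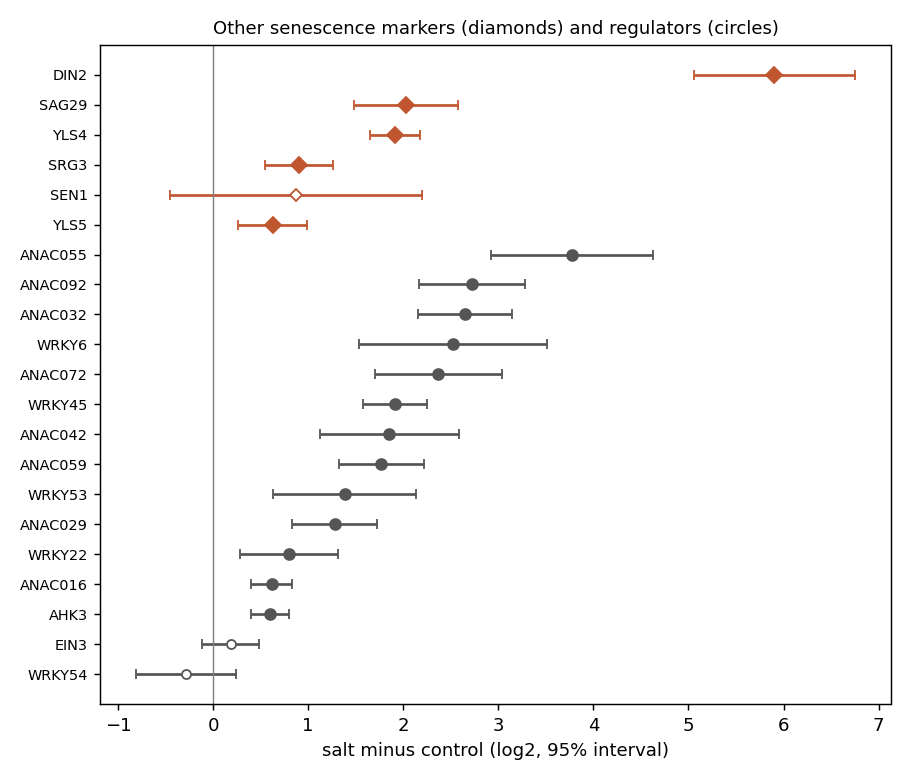
Difference between salt and control means (x axis, log2) with its 95% interval from limma for 6 other senescence markers (orange diamonds) and 15 senescence regulators (grey circles), filled where the test was passed. DIN2 has the largest difference (5.90), SEN1 the widest interval, and SEN1, EIN3 and WRKY54 are the open symbols.

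Several of the markers respond to pathogens, so genes of the salicylic acid defence pathway were read beside them. Of 12 listed genes 7 were measured, and the H2O2 list gave the name of each. Of all genes named by that list alone, 36.9% rose. The mean log2 value of the 7 genes was 8.39, 8.01 and 9.06 in control replicates 1 to 3 and 9.80, 9.30 and 9.15 in salt replicates 1 to 3. By this mean, control replicate 3 and salt replicate 1 were highest in their groups, as they were for NHL10, SAG13 and SAG14. Single genes differed in the salt group. Salt replicate 1 was highest for FMO1 (9.48 against 7.59 and 7.82), CBP60g, EDS5 and NIMIN1. For PR1 (13.40), PR5 (11.27) and PBS3 (9.05) it was salt replicate 2. Among all genes tested, 33.0% were highest in control replicate 3 of the control arrays and 36.4% in salt replicate 1 of the salt arrays. FMO1, a gene of systemic immunity, rose by 2.17 (SE 0.58, adjusted p = 0.037 from limma), PBS3, needed to make salicylic acid, by 1.68 (SE 0.30, adjusted p = 0.010), PR1, the classical marker of the pathway, by 1.31 (SE 0.23, adjusted p = 0.0095), and the transcription factor gene CBP60g by 1.05 (SE 0.23, adjusted p = 0.020). The calls of FMO1 and CBP60g were lost without control replicate 1 or 2 (adjusted p up to 0.13), and that of FMO1 also without salt replicate 3 (0.054) and with the replicate number as a block (0.058). No call was made for PR5 at -0.78 (SE 0.24, adjusted p = 0.060), NIMIN1 at 0.79 (SE 0.36, adjusted p = 0.17) or EDS5 at 0.31 (SE 0.31, adjusted p = 0.52). Without control replicate 2, PR5 had -1.05 and passed (adjusted p = 0.019). The part of this pathway in the rises of the markers was not tested.

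The genes whose pattern over the 6 arrays was most like that of each marker were found by Pearson correlation, as a description over arrays that fall into 2 groups and with no function implied. They were SDP1 (r = 0.9995) and AT2G25450 (0.9986) for SRG1, and SR1 (0.9997) and AT5G22450 (0.9995) for SAG13. For NHL10 they were AT5G54870 (0.9996) and AT3G62330 (0.9992), and for SAG14 AT5G49900 (0.9984) and AT1G21670 (0.9973). Between 644 and 742 genes had an r above 0.95 with each of these 4 markers. For SAG101, whose groups overlapped, 11 genes had an r above 0.95, led by AT5G18510 (0.988) and HR4 (0.983). HR4 stood at 10.38, 10.16 and 10.98 in control and 10.52, 10.20 and 10.89 in salt replicates 1 to 3, with replicate 2 lowest and replicate 3 highest in both groups, as in SAG101.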

How the data were processed

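RNA of 3 control and 3 salt samples was hybridized to ATH1 arrays by a service laboratory. RMA was applied to the probe intensities by the authors, and the deposited values are log2 expression for 22810 probe sets. The labels list GCRMA beside RMA without a role, and versions are not given in the sources used here. Names came from the platform annotation for probe sets where it gave 1 gene (13513) and otherwise through the study's supplementary list of H2O2-responsive transcripts (921), of which 1995 rows were held here. Probe sets with several genes (503) or without a named gene (7809) were left out, with 64 control probe sets. Each of the resulting 14276 genes was represented by its probe set of highest mean. A reference gene table (assembly TAIR10.1) was used for names and gene order alone.

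Salt and control were compared with limma 3.58.1 in R 4.3.3 by lmFit and eBayes, without a pairing term, and p-values were adjusted over all genes by the Benjamini-Hochberg method. Single differences between genes were tested by exact permutation with scipy 1.17.1. The limma fit was tested on simulated data with known differences. The members and gene lists were chosen with earlier results of these data known. All 7 markers are named whatever they showed. Of the other lists, the 3 genes with the largest difference are named, and further genes, among them AT2G29340, WRKY54, EIN3, SRG3, YLS5, SEN1, CBP60g, PR5, NIMIN1, EDS5, LRX1 and IRT1, complete small counts and were picked with their values already seen. For each measured marker the 2 most alike genes are named.

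Alternatives were the leaving out of each array, a block for the replicate number, array weights, median centring, quantile normalization, an unmoderated model, a trended and robust eBayes, limma's treat against a 2-fold change, filters on mean signal (30th and 50th percentile), the mean of all probe sets of a gene, adjustment over all probe sets, and the platform annotation's names alone. Arrays carry no counts, so their number limits the precision. The limma p-values set each difference against the spread between these samples, moderated over all genes by eBayes. A search of promoters for motifs was not run, since promoter sequences were not used here. Replicate numbers were checked for pairing and were not used as pairs.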

Additional observations from a re-analysis of the deposited data

How the results depend on the processing

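With 1 array left out, 4 of the measured markers were called higher in each of the 6 fits, and none was called lower under any of 18 alternatives. SRG1 and SAG13 passed under all 17 alternatives in which they were named (differences of 3.99 to 4.23 and 2.49 to 2.75). With limma's treat, which tests for a change above 2-fold, 2 markers passed, whereas NHL10 (2.03, adjusted p = 0.071) and SAG14 (1.66, adjusted p = 0.26) did not. With the platform annotation's names alone, 0 were called higher, because only SAG101 was then named. The difference of SAG101 near 0 changed sign with array weights (0.046) and ranged from -0.12 to 0.17 with 1 array left out, passing in no alternative. That of NHL10 against its relatives ranged from -0.051 to 0.38, negative without salt replicate 2, in alternatives added after the data were seen. All other differences of changes kept their sign.

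Over all genes tested, 1629 were called higher and 1750 lower. The unmoderated model called 581 and 333, and treat 157 and 4. Leaving out 1 array gave 837 to 1701 higher (lowest without control replicate 1, then 845 without control replicate 2) and 492 to 1891 lower (lowest without control replicate 2, then 500 without control replicate 1 and 917 without control replicate 3). The unmoderated model called 3 of the 6 other senescence markers and 8 of the 15 regulators higher, and treat 2 and 4. Among the dehydrogenases listed with SAG13, 0 to 3 were called lower over the alternatives, and among the phytocyanins also 0 to 3.

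Over all genes, same-numbered arrays did not deviate together. The correlation of their deviations from the group means was -0.12, 0.052 and -0.14 for numbers 1 to 3. With 3 arrays per group this cannot exclude that same-numbered samples were handled together. With the replicate number as a block, 1398 genes were called higher and 1345 lower, and SRG1, SAG13, NHL10 and SAG14 passed (adjusted p of 0.0014 to 0.0095 from limma). The motif search and its alternative were not run. Relatives and pathway genes were matched to probe sets only in part, and 2 of the 7 markers were matched to none.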
